A study of Drosophila melanogaster with 20 samples.

Results

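Cytosolic ribosomal protein genes encode the proteins of the ribosome that translates nuclear messages. They were taken as the genes whose symbol on the array platform starts with RpL or RpS followed by a digit, together with RpLP0, RpLP1 and RpLP2 and without RpS3A. Where a gene had several probe sets, the one of highest mean represented it. This gave 40 genes of the 11982 genes with a probe set of a single gene. Of these, 21 belong to the large subunit by name, 16 to the small subunit and 3 to the stalk. A RefSeq gene table lists 90 genes that fit the same rule, so the 40 genes are a share of the family. Probe sets in the upper 60% by mean signal were tested, and 37 of the 40 genes passed this filter.

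Transcript levels were measured with 20 Affymetrix arrays in eye imaginal discs, the larval epithelia that form the compound eye of Drosophila melanogaster. Discs were dissected from wandering larvae of the third instar, kept at 25 °C. Human proinsulin, the precursor of insulin, was expressed with the GAL4/UAS system under GMR-GAL4, a driver that acts in the disc behind the morphogenetic furrow, so a whole disc also holds cells in front of the furrow that the driver does not act in. The study set lines that express the C96Y mutant, which lacks a cysteine of the normal protein, against lines with wild-type proinsulin and against non-transgenic larvae.

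The wild-type form was carried by the lines WT-6 and WT-24 and the C96Y form by Mut-1 and Mut-101, with the transgene hemizygous. Non-transgenic larvae had no proinsulin transgene, and the labels list GMR-GAL4 for them too. Males and females of each of the 5 lines were hybridised to 2 arrays each, which gave 8 arrays with C96Y, 8 with wild-type proinsulin and 4 non-transgenic arrays. The labels call the arrays of 1 line and sex biological replicates. Errors of the tests therefore measure how far replicate arrays differ, and insertion lines do not enter them. The level of the human transgene was not analysed here, so a difference in dose between lines and an effect of the mutation cannot be told apart.

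A ribosome holds 1 copy of most of its proteins, and the genes of both subunits are usually transcribed in step. In Drosophila, loss of a gene copy of many of them gives the Minute phenotype, with slow growth and short bristles, and Minute cells are removed from a disc when they lie beside normal cells. The transcription factor Xrp1 acts in that removal, and RpS12 is needed for it. Growth signals through the kinase Tor and the transcription factor Myc raise ribosome production, while phosphorylation of the translation factor eIF2alpha by PEK during stress of the endoplasmic reticulum (ER) lowers translation.

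The mean signal of an array was 1199 to 1255 intensity units and its median 210.2 to 283, with the highest mean and median in Mut-101 male replicate 2. All 14 eye disc markers searched were measured, and their summed signal was 54580.4 to 61184 in wild-type proinsulin, 51929 to 56901 in C96Y and 56198 to 57495 in non-transgenic arrays. The median of this sum was 54168 in C96Y, 56921 in wild-type proinsulin and 56989 in non-transgenic arrays. Between C96Y and wild-type proinsulin, 9 of the 14 eye disc markers were called, where 20.1% of all probe sets tested were. Of other markers tested, 2 of 9 haemocyte, 3 of 8 brain, 3 of 6 glial, 2 of 4 antennal disc and 1 of 2 testis and germ line markers were called. Calls were made for 0 of 5 fat body, 6 ring gland, 5 salivary gland and 5 muscle markers. Summed fat body signal was over 10 times the median array in 2 arrays, Non-transgenic male replicate 2 and WT-24 female replicate 1. Ring gland signal was over 2.5 times the median in 4 arrays, which were WT-24 male replicate 2, Non-transgenic male replicate 1, WT-24 female replicate 2 and WT-6 female replicate 1. The part of these tissues in the results below was not tested. In discs, fewer cells of a type and less RNA per cell cannot be told apart.

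The 37 tested genes fell into a group of strong signal and a small group of weak signal. A split at 5000 intensity units, chosen after the values were seen, put 32 genes above it, with geometric means from 7972 for RpL7-like to 19729 for RpL41, and 5 below it, from 171 to 431. The signal of a probe set depends on its probes, so these values do not rank the transcripts. RpL41, which encodes one of the smallest proteins of the large subunit, ranged from 18940.4 to 20387 over the 20 arrays, and RpL15 from 19341 to 20052. RpLP2, a stalk protein gene, ranged from 18817 to 19979. These 3 genes had the highest signals of the family. Of the 50 probe sets of strongest signal on the platform 15 were ribosomal protein genes, of the first 100 there were 27 and of the first 200 there were 30. The strongest probe set of an array read 20284 to 21431, so the family lies close to the top of the measured scale. Whether signals this high still scale with the amount of RNA was not tested.

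The 5 weak genes all have a second gene for the same ribosomal protein. RpL22-like is known in Drosophila from the testis and eye, RpS5b and RpS19b from the germ line, and RpS28a and RpL37-2 are copies of RpS28b and RpL37-1. RpS5b read 368 to 559 over all arrays, RpS19b 273 to 438 and RpL22-like 183 to 393. RpS28a read 152 to 201 against 16839 to 18461 for RpS28b, and RpL37-2 152 to 203 against 18044 to 19091 for RpL37-1. Both of these pairs thus had a strong and a weak probe set in every array. The 3 genes below the filter are also second copies. RpL10Aa read 25.1 to 52.8, RpS28-like 77.6 to 118 and RpS10a 114 to 159. RpL10Ab, the partner of RpL10Aa, read 14611 to 15687. Markers of testis and germ line were near the filter as well, with 2 of 7 measured genes tested.

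The strong genes repeated closely between arrays. The standard deviation (SD) of log2 signal within a line and sex had a median of 0.0239 over the 32 genes, 0.0515 over the 958 other probe sets above 5000 units and 0.102 over all 10262 probe sets tested. At equal signal the difference was smaller. Above 12000 units the 29 ribosomal protein genes had a median SD of 0.0237 and the 100 other probe sets 0.0268. The tightest genes were RpL36A (0.0110), RpL15 (0.0131) and RpS15 (0.0132), the last a protein of the head of the small subunit. The widest were RpL22-like (0.301), RpS19b (0.154) and RpS5b (0.106), all of weak signal. Among strong genes the widest was RpL24-like (0.0512), whose yeast relative acts in assembly of the large subunit and is not part of the mature ribosome.

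**Figure D1:**
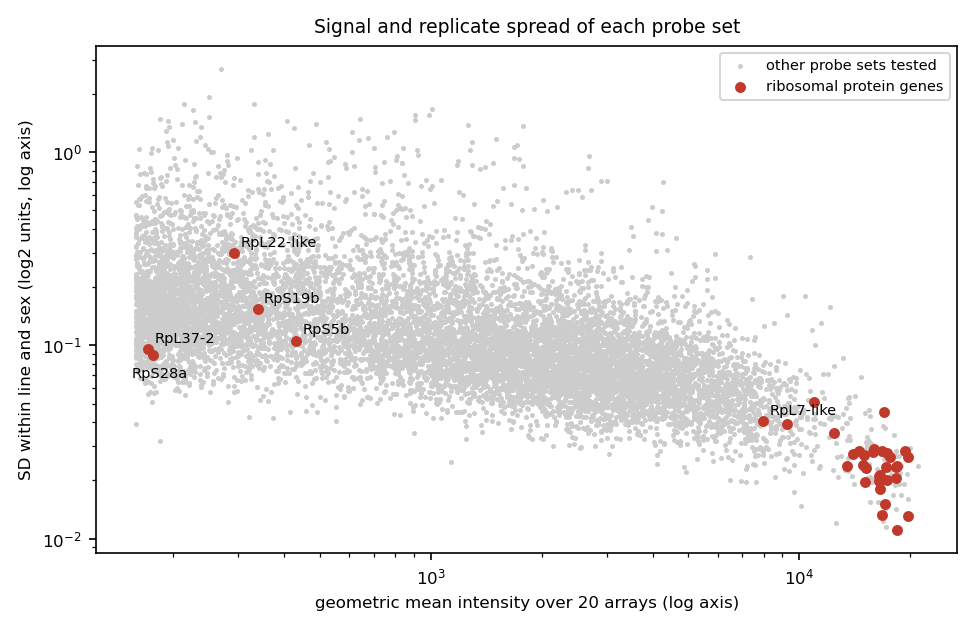
Each point is a tested probe set, with its geometric mean intensity over 20 arrays on the horizontal log axis and the SD of log2 intensity within a line and sex on the vertical log axis. The 37 ribosomal protein genes are in red, 32 of them in the group of strong signal and low spread at the lower right and 5 among the weak probe sets at the left.

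The strong genes made up a nearly fixed share of each array. The 40 genes summed to between 2.18% and 2.30% of the total intensity of an array, lowest in Mut-101 male replicate 2 and highest in Non-transgenic male replicate 1. The genes also moved together from array to array to a limited degree. For the 496 pairs of the 32 strong genes, deviations from the line and sex mean were correlated over 20 arrays. The median correlation was 0.35, from -0.83 to 0.93, and 400 pairs were above 0. The 2 arrays of a line and sex deviate by mirrored amounts, so each correlation rests on 10 independent values. The deviations also share the array, its scaling and its amplification, and the correlations are a description. Other probe sets of like signal were not correlated or counted per array, so these values are not shown to be particular to the family. RpL37A (mean correlation with the other genes 0.52), RpL37-1 (0.51) and RpS18 (0.49) followed the family most, while RpL3 (-0.23), which lies at the peptidyl transferase centre, and RpLP0 (-0.13) ran against it. In Mut-1 male replicate 1, 30 of the 32 genes lay above their own mean, and in Non-transgenic male replicate 1, 28 did. In Non-transgenic female replicate 1 only 3 did, and in WT-6 female replicate 2 only 4.

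**Figure D2:**
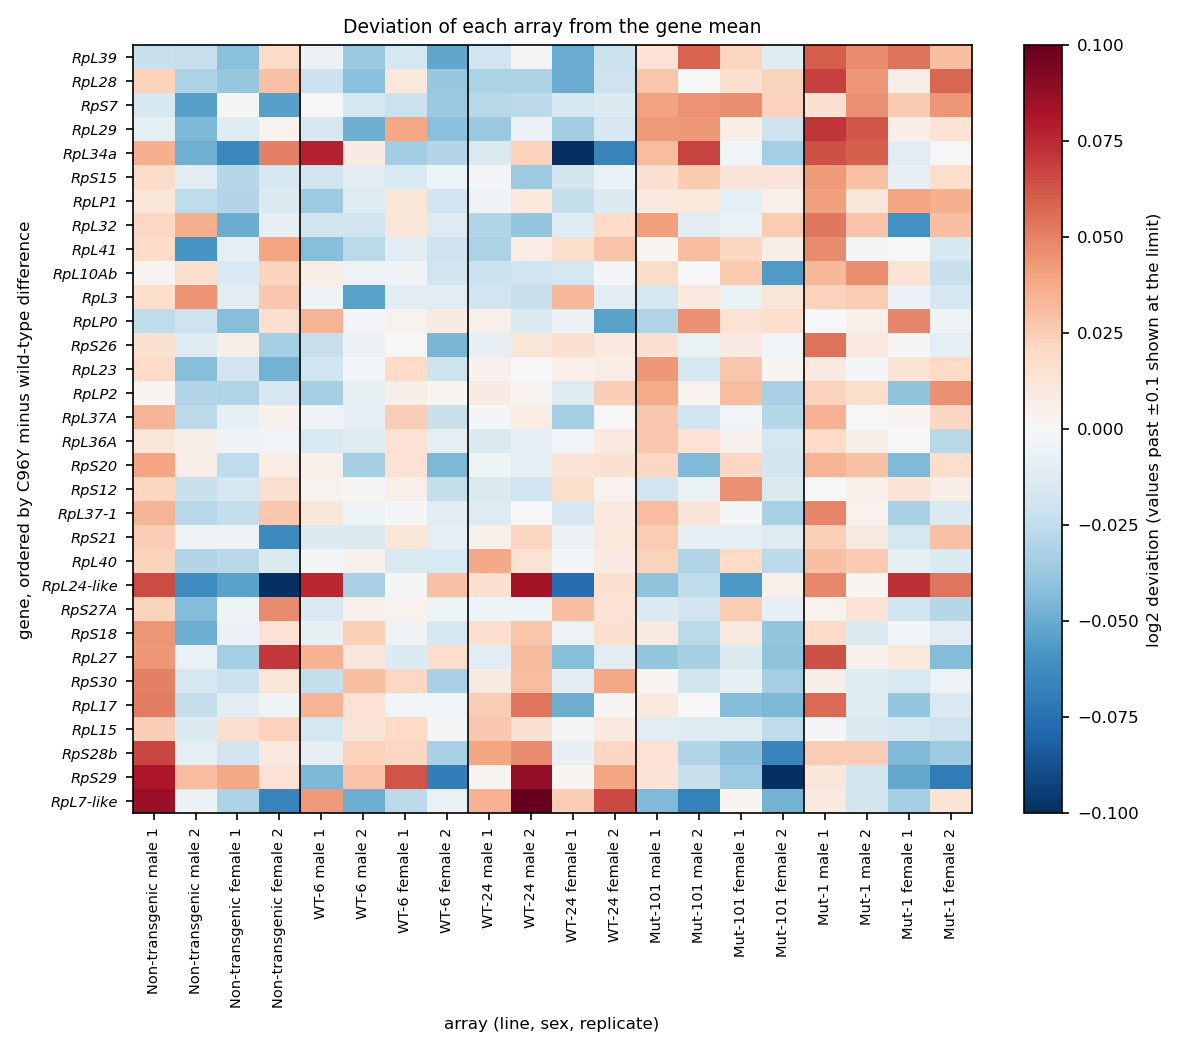
The colour of each cell is the log2 deviation of 1 array (columns, grouped by line) from the mean of 1 of the 32 strong genes (rows, ordered by the C96Y minus wild-type difference), red above and blue below the mean. The topmost rows are mostly red in the 8 C96Y arrays at the right, which the order of the rows fixes in advance. Single columns such as Mut-1 male 1 and Non-transgenic male 1 are red through most rows.

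C96Y was set against wild-type proinsulin to ask what the mutant changes beyond expression of the normal protein. Of the 37 genes, 6 rose (RpL39, RpL28, RpS7, RpL29, RpS15 and RpLP1), 0 fell and 31 were not called at a limma adjusted p under 0.05. Over all probe sets tested 20.1% were called, 11.5% higher and 8.59% lower, and among the 990 probe sets of at least 5000 units 28.2%, so the count is not particular to the family. Of the 958 probe sets at that level outside the family, 118 were higher and 155 lower, with a median log2 difference of -0.012. The 32 strong genes had a median of 0.0084, and the 2 medians were not tested against each other. At an unadjusted p under 0.05 there were 11 genes of the family, against 3377 of all 10262 probe sets tested. Of the 11 genes, RpL15, RpL22-like, RpL7-like, RpS28b and RpS29 had values below 0. The median log2 difference over the 37 genes was 0.0073, against -0.0028 over all probe sets tested. Of the 37 genes 21 were above 0, and of all 10262 probe sets 5012 were. The middle of the family was thus close to that of the array, and the largest rise was that of RpL39, by 0.060. Of the 6 calls 3 are of large subunit proteins, 2 of small subunit proteins and 1 of the stalk. All 6 values were above 0 in each of the 4 pairs of a C96Y line and a wild-type line. The 6 genes were picked by this same difference, so the pairs add no support. Genes without a call, such as RpL10Ab, RpL32 and RpLP2, were also above 0 in all 4 pairs.

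**Figure D3:**
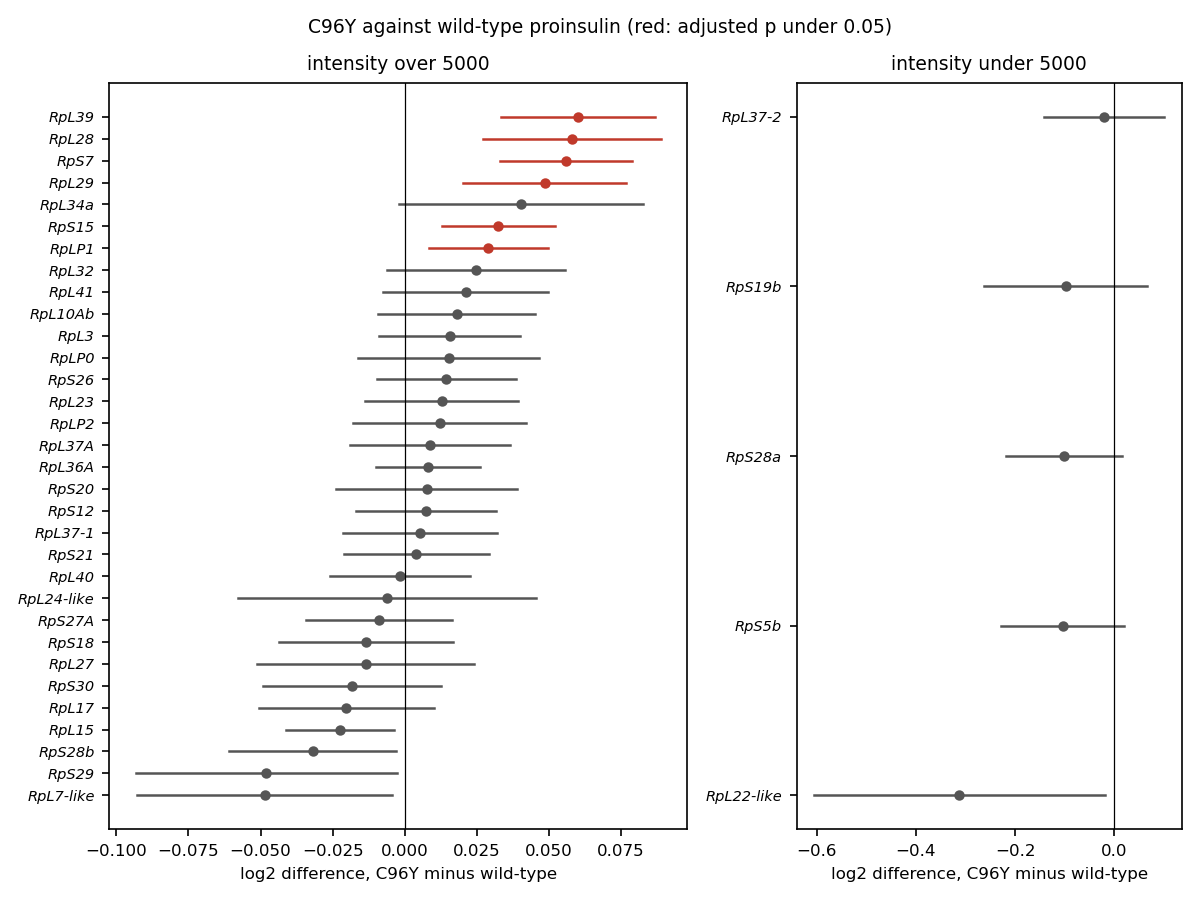
Points are log2 differences of C96Y minus wild-type proinsulin (horizontal axes, log2 units) and bars their 95% confidence intervals from limma, with 32 strong genes at the left and 5 weak genes at the right on a wider axis. The 6 called genes in red lie between 0.029 for RpLP1 and 0.060 for RpL39, and all 5 weak genes lie below 0 without a call.

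RpS7, a protein of the small subunit specific to eukaryotes, had the smallest adjusted p of the family. Its lowest, median and highest signals were 16134, 16325 and 16544 in the 8 wild-type arrays and 16727, 17045 and 17094 in the 8 C96Y arrays. Every C96Y array lay above every wild-type array, which was so for 2.97% of all probe sets in either direction and for no other gene of the family. The difference was 0.056 ± 0.0106 (log2, standard error), a 1.04-fold rise, with a limma adjusted p of 0.00286. Mut-101 read 17002 ± 126 and Mut-1 16933 ± 171 (SD, n = 4 each), and these lines overlapped in this gene. RpS15 rose by 0.033 ± 0.00914 (adjusted p = 0.0243, limma), with 16394, 16661 and 16795 in wild-type and 16716, 17002 and 17313 in C96Y arrays. The lowest C96Y array of RpS15 lay within the wild-type range, so the groups overlapped.

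Among proteins of the large subunit, RpL39, which lines the exit tunnel of the new peptide, had the largest rise. Its lowest, median and highest signals were 16546, 16903 and 17135 in wild-type arrays and 17009, 17617 and 17888 in C96Y arrays, and the difference was 0.060 ± 0.0124 (adjusted p = 0.00443, limma). The overlap came from 1 female array of Mut-101. RpL39 read 17329 and 17859 in males and 17411 and 17009 in females in Mut-101 and 17888 and 17722 in males and 17813 and 17512 in females in Mut-1. RpL28 rose by 0.058 ± 0.0143 (adjusted p = 0.0124, limma), from 13744 ± 176 to 14309 ± 242 (SD, n = 8 each). RpL29 rose by 0.048 ± 0.0131 (adjusted p = 0.0198, limma), from 13257 ± 261 to 13711 ± 302. RpL28 and RpL29 have no counterpart in bacterial ribosomes, and in both genes the highest wild-type array, WT-6 female replicate 1, lay inside the C96Y range.

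The stalk recruits elongation factors to the ribosome, with RpLP0 as the base that carries RpLP1 and RpLP2. RpLP1 rose by 0.029 ± 0.00961 (adjusted p = 0.0492, limma), with lowest, median and highest signals of 16689, 16959.6 and 17258 in wild-type and 17012, 17251 and 17609.9 in C96Y arrays. Mut-1 at 17501 ± 162 lay above Mut-101 at 17166 ± 107 (SD, n = 4 each). RpLP0 differed by 0.015 ± 0.0145 with an interval of -0.016 to 0.046, and RpLP2 by 0.012 ± 0.0140 with an interval of -0.018 to 0.042, neither of them called. A difference of the size seen for RpLP1 is inside both intervals, so the 3 stalk genes are not shown to differ in response.

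**Figure D4:**
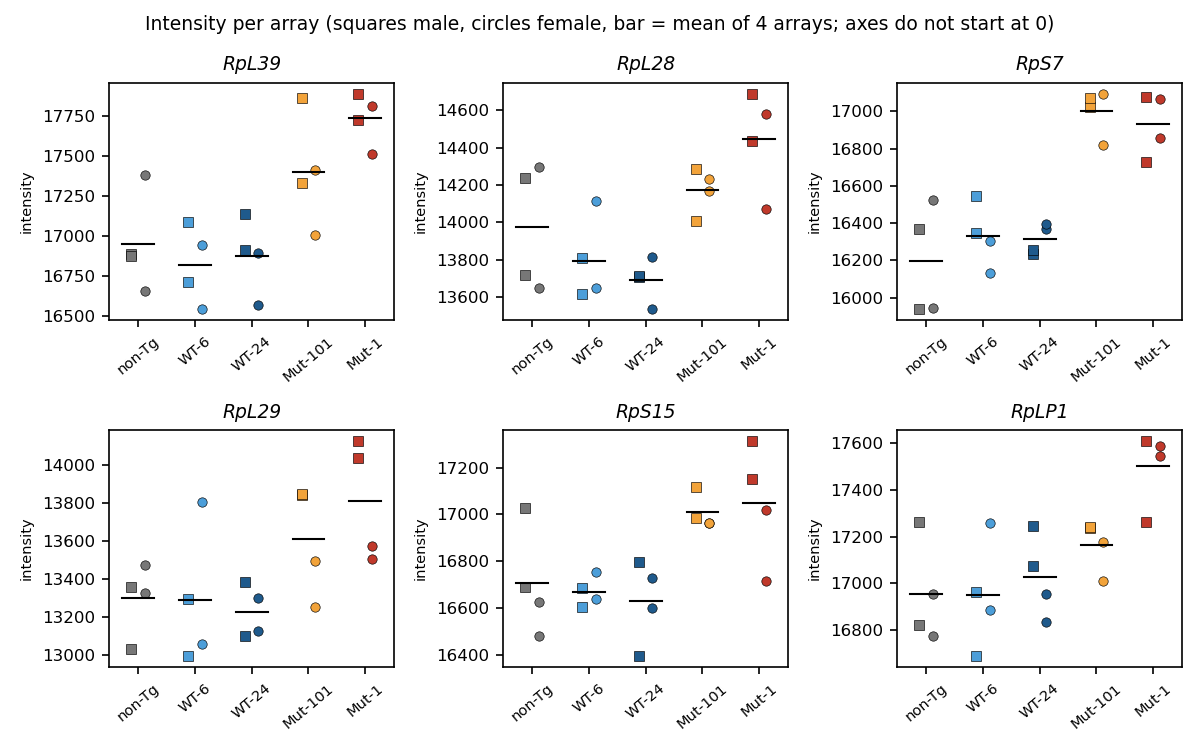
Intensity in each array (vertical axes, linear, not starting at 0) of the 6 genes called between C96Y and wild-type proinsulin, by line, with squares for males, circles for females and bars for the mean of 4 arrays. In RpS7 all C96Y arrays (16727 to 17094) lie above all wild-type arrays (16134 to 16544), while in the other 5 genes the ranges overlap.

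No call was left when each array was centred on its median, when the variance was modelled without a trend on signal, when the means of lines served as replicates, or with the number in the description as a replicate block. Only 1 was left without line Mut-1 (RpS7) and 2 without WT-24 (RpL39 and RpS7). RpS7 differed by 0.00059 when all probe sets of a gene were averaged, its other probe set reading 60.5 units on average. With 1 array left out in turn, the calls of RpL28, RpL29, RpL39 and RpS7 held in 20 of 20 fits, RpS15 in 14 and RpLP1 in 4. How many calls were lost over all probe sets is not given here, so these losses are not shown to be particular to the family.

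Values below 0 were led by the weak genes. RpL22-like read 235, 335 and 393 (lowest, median and highest) in wild-type and 183, 272 and 333 in C96Y arrays, a difference of -0.31 ± 0.136 that was not called (adjusted p = 0.127, limma). The groups overlapped, and its interval of -0.61 to -0.019 is wide beside those of the strong genes. RpS5b differed by -0.10, RpS28a by -0.10, RpS19b by -0.098 and RpL37-2 by -0.021, none of them called. The 5 signals reach at most 559 units, in RpS5b, and replicate arrays differ more there than in the strong genes.

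Partners in the strong group behaved as follows. RpL37-1 differed by 0.0054 ± 0.0123, RpL10Ab by 0.018 ± 0.0126 and RpS28b by -0.032 ± 0.0134, with adjusted p values of 0.804, 0.354 and 0.116 from limma. RpL34a, from a pair of genes for 1 protein, differed by 0.040 ± 0.0197 (adjusted p = 0.175, limma). RpL7-like, whose yeast relative is an assembly factor, differed by -0.048 ± 0.0205 (adjusted p = 0.117, limma) and RpL24-like by -0.0062 ± 0.0240. None of the paralogs was called in this comparison. Without line WT-6, 4 genes were called higher and 2 lower.

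RpS29, a zinc-binding protein of the small subunit head, was among the lowest of the strong genes. It read 16214, 17199 and 18082 in wild-type and 15868, 16672 and 17168 in C96Y arrays (lowest, median and highest), and the groups overlapped over much of their range. The difference was -0.048 ± 0.0210 (adjusted p = 0.129, limma). A second strong probe set of RpS29 gave -0.060 without a call in a fit with all probe sets except controls. RpL15 differed by -0.022 ± 0.00869 (adjusted p = 0.09, limma), on a spread that is among the smallest of the family. The transcripts made as fusions to ubiquitin or a ubiquitin-like protein differed by -0.0016 for RpL40, -0.0089 for RpS27A and -0.018 for RpS30. RpL32, known as rp49 and often used as the reference transcript in fly assays, differed by 0.025 ± 0.0143, with an interval of -0.0060 to 0.056. RpS12, needed for removal of Minute cells, differed by 0.0073, RpL3 by 0.016 and RpL41 by 0.021. RpL23, RpL27, RpL36A and RpL37A of the large subunit and RpS18, RpS20, RpS21 and RpS26 of the small subunit differed by -0.014 (RpL27) to 0.014 (RpS26), none of them called. RpL17, the third X-linked gene beside RpL37-1 and RpS28b, differed by -0.020.

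Discs with wild-type proinsulin and non-transgenic discs were compared to show what the normal protein changes. No ribosomal protein gene of the 37 was called with limma, against 0.107% of all probe sets. An unadjusted p under 0.05 was found for 733 of 10262 probe sets and for 1 gene of the family. That gene was RpL3, with a difference of -0.032 ± 0.0139 and an adjusted p of 0.676 from limma. The median over the 37 genes was -0.0047 against -0.0043 over all probe sets. RpS7 differed by 0.012, RpL39 by -0.0085, RpL28 by -0.024 and RpLP1 by 0.0030. The largest value above 0 was that of RpL24-like, 0.056, and the largest below 0 that of RpL37-2, -0.10.

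C96Y was also set against non-transgenic discs, which served as controls in the preceding comparison too, and its C96Y arrays are those set against wild-type proinsulin. RpS7 and RpL39 were called higher, 0 genes were called lower and 35 were not called, against 11.5% of all probe sets called, 6.8% higher and 4.74% lower. RpS7 differed by 0.067 ± 0.0130 (adjusted p = 0.00535, limma). It read 16367 and 15940.1 in males and 16527 and 15943 in females in non-transgenic discs, all below the lowest C96Y array at 16727. RpL39 differed by 0.052 ± 0.0151 (adjusted p = 0.0434, limma). It read 16889 and 16876 in males and 16659 and 17380.3 in females in non-transgenic discs, and the highest of these lay within the C96Y range. Of the other genes called against wild-type, RpL29 differed by 0.044 (adjusted p = 0.0945), RpL28 by 0.034 (0.222), RpLP1 by 0.032 (0.0974) and RpS15 by 0.028 (0.127) from limma, none of them called.

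RpS29 differed by -0.075 ± 0.0257 from non-transgenic discs without a call (adjusted p = 0.0765, limma). It read 17999 and 17378 in males and 17465 and 17185 in females in non-transgenic discs, all above the highest C96Y array at 17168. The arrays of C96Y and non-transgenic discs did not overlap in RpS7 and RpS29, 2 of the 37 genes, and in 5.27% of all probe sets. In a second strong probe set of RpS29, at 16709 units on average, these arrays did overlap. It gave -0.087 without a call (adjusted p = 0.069, limma, in a fit with all probe sets except controls). The call of RpL39 held in 6 of 20 fits with 1 array left out and that of RpS7 in 20 of 20. Neither gene was called without the 2 arrays high in fat body markers, and quantile normalization called 4 genes. Neither call was left with arrays centred on their medians, with a variance without a trend, with lines as replicates, or with the number in the description as a replicate block. Calls over all probe sets in these fits are not given here. With all probe sets of a gene averaged RpS7 turned to -0.050.

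The C96Y lines were compared with each other to see how far insertions of 1 transgene differ. No ribosomal protein gene was called between Mut-101 and Mut-1 with limma, against 3.49% of all probe sets. An unadjusted p under 0.05 was found for 1515 of 10262 probe sets and for 2 genes of the family. Of the 32 strong genes 6 had a value above 0, with a median of -0.010. Over all 10262 probe sets 5368 were above 0, with a median of 0.0048. The 2 genes with an unadjusted p under 0.05 were RpL37-2 at -0.17 ± 0.0797 and RpL24-like at -0.074 ± 0.0340. The arrays of both lines did not overlap in RpLP1 and RpS19b, against 9.09% of all probe sets. RpLP1 read 17609.9 and 17262 in males and 17589 and 17544 in females in Mut-1 and 17235 and 17241 in males and 17012 and 17176 in females in Mut-101, a difference of -0.028 ± 0.0136 (adjusted p = 0.373, limma). RpS19b read 300.0 and 312 in males and 314 and 317 in females in Mut-1 and 325 and 350.2 in males and 344 and 335 in females in Mut-101, a difference of 0.12 ± 0.107 (adjusted p = 0.694, limma). The direction was opposite in the 2 genes, lower in Mut-101 for RpLP1 and higher for RpS19b. The wild-type lines WT-24 and WT-6 did not differ in a called ribosomal protein gene either, against 0.955% of all probe sets. An unadjusted p under 0.05 was found for 905 of 10262 probe sets and for 1 gene of the family. That gene, RpL7-like, differed by 0.070 ± 0.0290 (adjusted p = 0.492, limma).

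Male discs were set against female discs over all lines. RpL37-2, RpL34a and RpL17 were called higher in males and 0 genes lower, against 12.3% of all probe sets called, 7.73% higher and 4.56% lower. In all, 31 of the 37 genes had a value above 0, with a median of 0.011 against 0.023 over all probe sets, and 6231 of the 10262 probe sets were above 0 too. With arrays centred on their medians, the median was -0.086 over the 37 genes and -0.075 over all probe sets. RpL37-2 read 152, 158 and 185 in the 10 female and 160.4, 184 and 203 in the 10 male arrays (lowest, median and highest), a difference of 0.17 ± 0.0504 (adjusted p = 0.0445, limma). RpL34a read 8546, 9032 and 9563 in female and 8928, 9446 and 9739 in male arrays, a difference of 0.061 ± 0.0176 (adjusted p = 0.0405, limma). RpL17, which lines the exit tunnel, read 14513, 14881 and 15026 in female and 14767, 15215 and 15607 in male arrays, a difference of 0.042 ± 0.0126 (adjusted p = 0.0465, limma). In 0 of the 37 genes were male and female arrays apart, against 0.877% of all probe sets. In the 3 called genes the male mean was higher in each of the 5 lines. These genes were picked by the same difference, so the lines add no support. RpS30, which was not called, was also higher in males in each of the 5 lines.

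The 3 tested genes on the X chromosome, which males carry in 1 copy, all had values above 0. RpL17 was called, RpS28b differed by 0.039 ± 0.0120 (adjusted p = 0.0514, limma) and RpL37-1 by 0.019 ± 0.0110. Among named genes of the X chromosome 11.3% were called higher in males, and among named autosomal genes 5.58%. On the X chromosome 153 of 1359 named genes were called higher and 291 lower, with a median of -0.022, and of 6612 autosomal genes 369 were called higher and 110 lower, with a median of 0.018. RpS28a on an autosome, the partner of RpS28b, differed by 0.16 ± 0.0486 (adjusted p = 0.0509, limma) and RpL22-like by 0.18 ± 0.121, not called. RpS19b was the gene of largest value below 0, at -0.10. None of the 3 calls remained when arrays were centred on their medians, and RpL17 (-0.056) and RpL34a (-0.037) then lay below 0; no call remained without any 1 of the 4 transgenic lines. Lines as replicates and the number in the description as a replicate block left 0 calls, and the number in the title as a replicate block left 1. With 1 array left out in turn, the call of RpL34a held in 5 of 20 fits and those of RpL17 and RpL37-2 in 3 each. Calls over all probe sets in these fits are not given here.

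**Figure D5:**
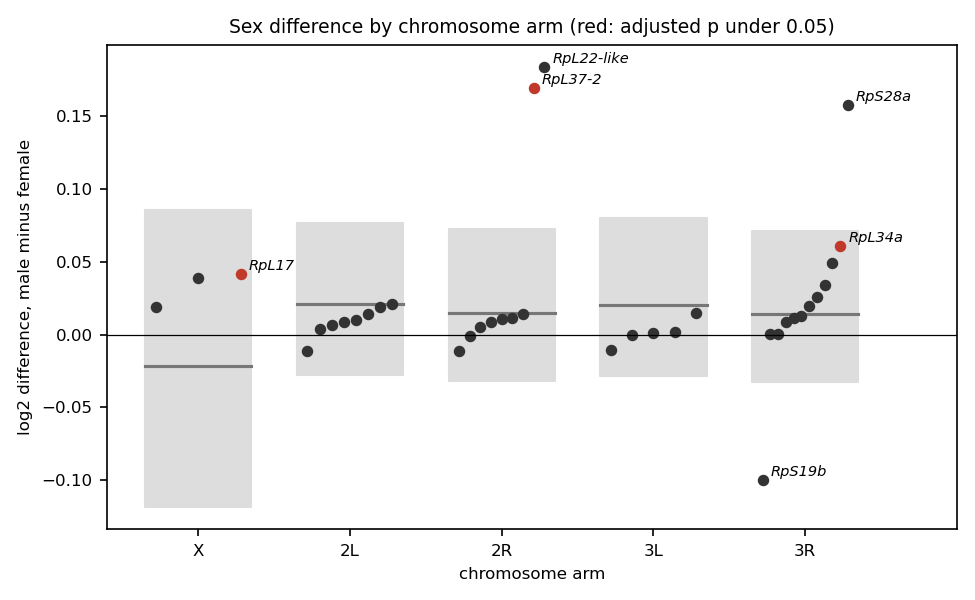
Points are the log2 difference of males minus females (vertical axis) of the 37 tested ribosomal protein genes by chromosome arm, red where called, over a grey box for the middle 50% of all named genes of that arm with its median as a line. The 3 X-linked genes lie above the X median, and RpL37-2, RpL22-like, RpS28a and RpS19b, all of weak signal, lie outside the boxes.

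Whether the response to C96Y differed between the sexes was tested with an interaction term. It called 0 ribosomal protein genes with limma and 0% of all probe sets. At an unadjusted p under 0.05 there were 2 genes of the family, RpL29 (0.067 ± 0.0262) and RpL36A (0.042 ± 0.0166), and 342 of 10262 probe sets.

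Related genes were described from lists, in C96Y against wild-type proinsulin. The ribosomal protein gene Rack1, a scaffold on the small subunit whose symbol is outside the naming rule, rose by 0.048 ± 0.00985 (adjusted p = 0.00455, limma), from a mean of 16037 to 16576. Mitochondrial ribosomal protein genes, whose products form the separate ribosome of the mitochondrion, had 16 rises and 6 falls among 69 tested, with a median of 0.032, where 11.5% of all probe sets rose and 8.59% fell. In males against females the same family had 1 rise and 8 falls, with a median of -0.048, against 7.73% and 4.56% of all probe sets. The cytosolic and the mitochondrial counts were not tested against each other.

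Of 24 tested genes of RNA polymerase I and ribosome assembly, 3 rose and 1 fell, against 20.1% of all probe sets called. Polr1B, a large subunit of RNA polymerase I, rose by 0.19 ± 0.0461 (adjusted p = 0.011, limma). The rise of eIF6, a factor that keeps the new large subunit from joining the small one, was 0.14 ± 0.0347 (adjusted p = 0.0119, limma). The helicase gene pit rose by 0.13, and vito fell by 0.097 on the log2 scale. Polr1B and eIF6 were also higher than in non-transgenic discs, by 0.20 and 0.14. In males against females 3 of the 24 genes fell and 0 rose, against 4.56% and 7.73% of all probe sets. The 3 were bys (-0.19), l(3)72Dn (-0.12) and Nop60B (-0.084).

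Of 18 tested translation factors, 0 rose and 2 fell, against 11.5% and 8.59% of all probe sets. The elongation factor gene eEF1gamma fell to 13027 ± 319 against 13680.0 ± 323 (mean and SD, n = 8 each), a log2 difference of -0.071 ± 0.0190 (adjusted p = 0.0198, limma). The cap-binding protein gene eIF4E1 differed by -0.069 ± 0.0215 (adjusted p = 0.0389, limma). Of 9 tested regulators of ribosome production, 1 rose and 2 fell, against the same 11.5% and 8.59% of all probe sets. Tsc1, an inhibitor of Tor signalling, rose by 0.16. Mnt, which opposes Myc, had a difference of -0.21, and S6k, the kinase of ribosomal protein S6, one of -0.14, both called lower. The other 6 genes of this list were not called. Against non-transgenic discs 6.8% of all probe sets were called higher in C96Y and 4.74% lower. In that comparison limma called 0 of the 9 regulators, with values of 0.11 for Tsc1, -0.20 for Mnt and -0.13 for S6k. Of the 18 translation factors only eIF5, at -0.10, was called lower there, while eEF1gamma (-0.062) and eIF4E1 (-0.064) were not called.

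Of 8 tested genes known to respond to loss of ribosomal proteins or to accompany it, 4 rose and 0 fell in C96Y discs, where 11.5% of all probe sets rose. GstE6, a glutathione S-transferase gene, read 1084 ± 688 against 280.1 ± 265 (mean and SD, n = 8 each) in C96Y against wild-type discs, a log2 difference of 1.99 ± 0.286 (adjusted p = 0.000406, limma). Irbp18, the binding partner of Xrp1, rose by 0.45 ± 0.0710 (adjusted p = 0.000832, limma). PEK, an ER stress kinase gene, rose by 0.23 and GstD1, a second glutathione S-transferase gene, by 0.10. The other 4 genes of the list were not called in this comparison. Between C96Y lines, 3 of the 8 genes were called lower in Mut-101 than in Mut-1, where 2.16% of all probe sets were. They were GstE6 (-1.80), Irbp18 (-0.54) and GstD1 (-0.18). GstD1 was also called higher in WT-24 than in WT-6, by 0.15, where 0.594% of all probe sets were called higher. In males GstD1 was called higher by 0.062 and crc, the fly ATF4 gene, by 0.046, where 7.73% of all probe sets were.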

How the data were processed

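The authors deposited 1 linear intensity per probe set and array. The submitters' processing notes name MAS5, an Affymetrix algorithm that reduces each probe set to 1 value. Its version, settings and scaling target are not given in the sources used here. Precision is limited by how many arrays there are.

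Of 18952 probe sets, 183 controls were left out. The platform table gives 13647 probe sets 1 gene, 402 several and 4720 none. The 40 ribosomal protein genes matched a RefSeq gene table (Release 6 plus ISO1 MT) with 0 symbols changed. Coordinates are not used, since the files name no build. Each gene was represented by its probe set of highest mean, and the upper 60% of 17104 by mean, 10262 probe sets, were tested. Comparisons were fitted to log2 intensity with limma 3.58.1 (R 4.3.3) without a pseudocount, with 1 mean per line and sex over 20 arrays and a variance trend on signal. Contrasts gave each line and each sex equal weight. Tests were two-sided, and a Benjamini-Hochberg adjusted p under 0.05 over all probe sets tested is a call. The fit was tested on simulated data. Arrays of a line and sex correlated at 0.978 to 0.993 and none repeated another.

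Genes and lists were chosen with earlier results of these data known. Named are called genes, stalk genes, paralogs, those of extreme signal or spread, those below the filter and up to 4 genes of each list. Others were named to account for every gene, or after their values were seen. Of the list of ribosomal proteins with another symbol, 1 of 5 was measured. Alternatives covered scaling, filter, pseudocount, variance model, probe set choice, replicate block, lines as replicates, and lines or arrays left out.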

Additional observations from a re-analysis of the deposited data

Results flagged for a closer look

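The ribosomal protein genes' share of total intensity was 2.18% in Mut-101 male replicate 2, while the other 7 C96Y arrays lay between 2.24% and 2.27%. This array stood apart from its group by Dixon's criterion, the 1 such group of 33 tested. It also had the highest mean (1255) and median (283) intensity of the 20 arrays. About 1 group in 20 is expected to be marked by chance.

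Probe sets assigned to these genes that do not represent them gave 5 calls in a fit with all probe sets except controls. Those shared with another gene were also among the probe sets tested above, but were not counted as ribosomal protein genes. A weak probe set of RpL3 was lower in C96Y than in wild-type proinsulin, at 276 ± 23.4 against 340 ± 53.3 intensity units (SD, n = 8 each), a log2 change of -0.29 ± 0.0750 (SE; adjusted p = 0.0245, limma). The probe set that represents RpL3 gave 0.016 in the same comparison, and another, at 2440 units on average, gave 0.16 without a call. A probe set shared by euc and RpLP0 was lower in Mut-101 (987 ± 135) than in Mut-1 (1545 ± 278; SD, n = 4 each), by a log2 difference of -0.64, and was higher in males by 0.23. The probe set of RpLP0 alone differed by -0.00051 and -0.00023 in these comparisons. A second probe set of RpS30, at 244 units, was lower in males by a log2 difference of -0.28, against 0.011 for the one that represents the gene. A probe set shared by snoRNA:Or-CD12 and RpL28 was lower in males by -0.19, against 0.0010 for RpL28 alone. Which transcripts these probe sets read was not tested.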

How the results depend on the processing

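Counts of called ribosomal protein genes were 6 for C96Y against wild-type proinsulin, 2 for C96Y against non-transgenic discs and 3 for males against females. They were 0 in the other 4 comparisons, and stayed at 0 there under each alternative that could be fitted. Lines could not serve as replicates between 2 lines of 1 transgene. Centring arrays on their medians, lines as replicates, and the number in the description as a replicate block each left 0, 0 and 0 calls. A variance without a trend left 0, 0 and 2. For C96Y against wild-type, 1 call remained without Mut-1 and 2 without WT-24. For C96Y against non-transgenic discs the count was 4 with quantile normalization, 1 with the mean of all probe sets of a gene, with no filter, with the number in the title as a replicate block, without Mut-1 and without WT-24. It was 0 without the 2 arrays high in fat body markers and 1 without the 4 high in ring gland markers, 2 alternatives chosen after seeing the data. For the sexes it was 5 with the mean of all probe sets (4 higher, 1 lower) and 1 with quantile normalization and with the title number as a block. It was 0 without WT-6, WT-24, Mut-1, Mut-101 or the ring gland arrays. Leaving out 1 array in turn gave 4 to 7, 1 to 3 and 0 to 3 calls. Each of the 3 calls between the sexes held in at most 5 of these 20 fits. Under median centring RpL17 (-0.056) and RpL34a (-0.037) turned below 0 in males against females, while the median of all probe sets moved to between -0.075 and 0.016. With the mean of all probe sets RpS7 was -0.050 in C96Y against non-transgenic discs, since its other probe set reads 60.5 units. Other causes were not tested. Counts over all probe sets under these alternatives are not given here. Whether a loss of calls is particular to the ribosomal protein genes was thus not tested.

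The titles number the arrays of each line and sex, but those numbers did not pair the arrays. Deviations of arrays with 1 number correlated at -0.47 to 0.29 over 45 pairs of groups, 14 of them above 0.1. With the title number as a block, 5 genes were called between C96Y and wild-type proinsulin.

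Differences of the strong genes are small beside their signal, and that signal is near the top of the scale. Errors cover arrays of a line and sex, with 2 lines of each transgene. Which part of a difference belongs to the transgene, its insertion site or its dose cannot be told apart. A gene without a call is not shown to be unchanged.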
